A study of Saccharomyces cerevisiae with 18 samples.

Results

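The 60S ribosome assembly factors are the proteins that build the large subunit of the ribosome and then leave it. A list of 54 of their genes in budding yeast, Saccharomyces cerevisiae, was followed through a block of transcription, and members were found by the ORF names inside the names of the transcript features that were counted. Of the 54 genes, 46 lay in a feature with at least 1 single-nucleotide variant (SNV) between the parents of the strain, among 3974 features in all. A feature held the member alone for 27 of them and also held other genes for 19, whose reads cannot be given to any gene of the feature. The other 8 genes (RRP15, MAK16, RLP7, RLP24, NIP7, RPF1, SSF2 and SDA1) had no SNV in any table and hence no value.

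The strain was a diploid made by crossing the laboratory strain BY4716 (BY) with the vineyard strain RM11-1a (RM), and every library came from this hybrid. Each parent had the temperature-sensitive allele rpb1-1 of RPO21 (the largest RNA polymerase II subunit), so there was no culture with a wild-type polymerase and none kept at the growth temperature. Cultures in rich medium (YEPD) grew at 24 °C and were brought to 37 °C with medium of 50 °C, and poly(A) RNA of samples from 0 min (directly after the shift), 6, 12, 18, 24 and 42 min was sequenced, in 3 independent cultures at every time. A loss through the block of transcription and a response to heat therefore cannot be told apart.

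In yeast a large precursor rRNA is made by RNA polymerase I in the nucleolus, and assembly factors join it in steps. RNA helicases, rRNA-binding proteins and GTPases fold and clear the early particles, the exosome trims the spacer between the rRNAs, and export and cytoplasmic factors finish the subunit. The genes for these factors belong to the ribosome biogenesis regulon, whose promoters are known for a pair of short motifs named PAC and RRPE, and their mRNAs are known as a group that is lowered together in stress.

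The promoters are shown first because the members share these motifs. The list did not use them, but they were picked as motifs already known for this regulon. Their frequency here is therefore a description and not a test. The cores GATGAG (PAC) and AAAAATTTT (RRPE) were searched on both strands in the 250 bases before each start codon of the R64 reference, the assembly of the sacCer3 build. On the other strand they read CTCATC and AAAATTTTT, and a run of AAAAATTTTT holds 2 overlapping RRPE matches. GATGAG was found before 51 of the 54 genes (94.4%), against 17.0% of 6001 protein-coding genes. AAAAATTTT was found before 36 (66.7%, against 6.73%), and both before 33 (61.1%, against 3.35%). NOP53, SPB1 and NSA1 were the 3 members without GATGAG. Stretches of 7 promoters follow, each read 5′ to 3′ on the strand of its gene with 6 bases on each side and with a match of each motif found there in capitals. In PUF6, YTM1 and SSF1 a second GATGAG match overlaps the one in capitals and runs on in lower case. NOG1, PUF6, EBP2, YTM1 and NOP2 are shown as well-covered members of different roles, SSF1 as the member with the largest fall, and NOP53 as the member with the smallest fall and with a difference between alleles.
NOG1 (chrXVI:370829-370861, + strand): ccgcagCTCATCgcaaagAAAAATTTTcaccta
PUF6 (chrIV:1443491-1443525, - strand): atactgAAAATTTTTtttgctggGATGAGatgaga
EBP2 (chrXI:125628-125661, + strand): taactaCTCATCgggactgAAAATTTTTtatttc
YTM1 (chrXV:832648-832682, + strand): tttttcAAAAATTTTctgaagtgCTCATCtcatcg
NOP2 (chrXIV:510391-510420, + strand): tctgaaAAAAATTTTcatCTCATCgcagaa
SSF1 (chrVIII:229227-229244, + strand): aagaagCTCATCtcatcg
NOP53 (chrXVI:277663-277683, - strand): ccatcaAAAAATTTTccgtgc
A match is a description of the reference sequence, and no binding was measured.

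Reads that could be assigned to a parent at an SNV are called allelic reads here. The libraries held 439453 to 1180513 of them, apart from the library of 18 min, culture 3, with 74320. The BY share lay between 49.4% and 49.6% in each library, so reads of both parents were present throughout. Levels are given as CPM, the counts of both alleles relative to the allelic reads of the library, scaled by edgeR's TMM factors. They give a share of the mRNA pool, in which a fall of a transcript and a rise of the rest of the pool cannot be told apart. A loss of RNA common to all transcripts does not show in such a share. Features with a mean of at least 20 reads per library were tested, which left 25 of the 27 members that had a feature to themselves. DBP7 (20.1 reads) and NSA2 (20.2) were just inside this limit, and NOC3 (19.4) and ARX1 (11.4) were outside it. The mean runs over all times, so high counts at 0 min could carry a member past the limit and favour a fall. At 0 min lay 290 of the 362 reads of DBP7, 269 of 364 of NSA2 and 324 of 446 of DBP10. For RRS1 it was 376 of 475, for SSF1 469 of 593, for PWP1 642 of 895 and for DRS1 852 of 1150. All features were filtered alike.

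Nearly all of the mRNA of these members had left the pool by the last sample. From 0 to 42 min all 25 tested members fell, called at an adjusted p below 0.05 (quasi-likelihood F-test of edgeR, adjusted by Benjamini and Hochberg over 2840 features), against 39% of all features. Their median log2 change was -4.31, against -0.05 over all features, and the range ran from -7.09 for SSF1 to -1.74 for NOP53. A fall of over 16-fold was seen for 16 of the 25, against 2.43% of all features. DBP7, NSA2, DBP10, RRS1, SSF1, PWP1 and DRS1, which passed the read limit through their counts at 0 min, are among the 16. Together the 25 members made up 0.807% ± 0.095 of all allelic reads at 0 min and 0.0358% ± 0.023 at 42 min (SD, n = 3). The shares at 42 min were 0.0257%, 0.0622% and 0.0196% in cultures 1 to 3, and their mean was 0.0226% without culture 2, a value computed after seeing the data. With library totals in place of TMM factors the median of all features moved from -0.05 to -0.37 and NOP53 from -1.74 to -2.05, and all 25 were still lower.

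Most of this fall lay within the first 12 min. The median member had 38.7% of its level of 0 min left at 6 min, 10.5% at 12 min, 6.01% at 18 min, 6.69% at 24 min and 4.80% at 42 min. The median of all features stayed between 96.5% and 100.5% at these times. At 6 min 18 of the 25 members were under 50% of their level at 0 min, against 4.86% of all features, and at 12 min 24 were, against 12.4%. NOP53 was the exception at 12 min with 54.6% left.

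**Figure D1:**
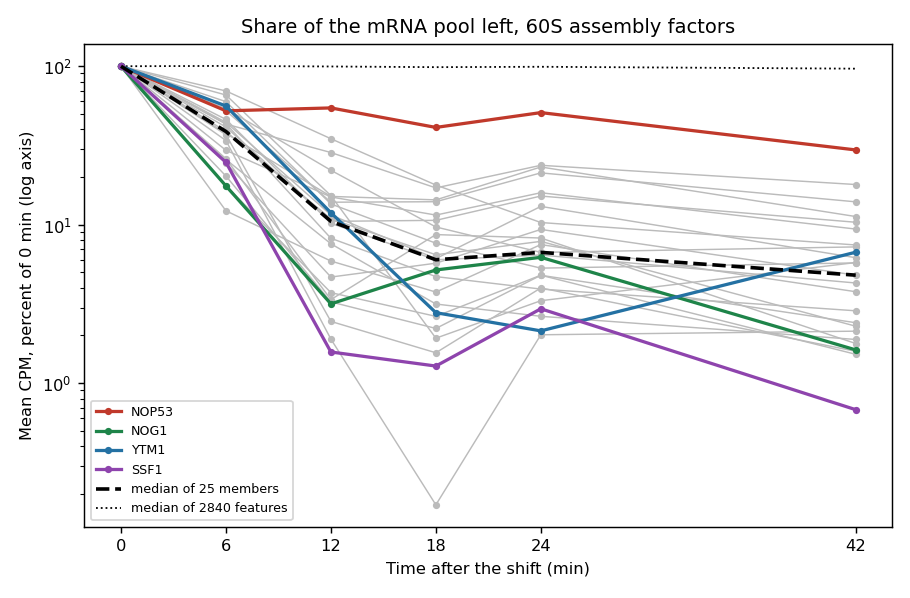
Mean CPM of the 25 tested members with a feature of their own as a percentage of 0 min (log axis) against time in min, with 4 members coloured, the others grey, the median member dashed and the median of 2840 features dotted. The median member reaches 10.5% at 12 min, while NOP53 (red) stays at 54.6% and the median of all features near 100%; the lowest point, DRS1 at 18 min, rests on 1 read.

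Among the factors of the early nucleolar particles with a feature of their own, EBP2 had the most reads. EBP2 (YKL172W, chromosome XI, 125759 to 127042), which is needed for processing of the precursor rRNA, had 659, 961 and 762 CPM at 0 min in cultures 1 to 3 and 10.5, 35.3 and 8.70 CPM at 42 min. Every library of 42 min lay far below every library of 0 min, and the log2 change was -5.38 ± 0.30 (adjusted p = 1.34e-11). Here and below the ± of a log2 change is the size of the change over the square root of F and stands in for a standard error. SSF1 (YHR066W, chromosome VIII, 229335 to 230696), a Brix-domain protein that binds precursor rRNA, had 118, 170 and 147 CPM at 0 min and 1.74, 1.22 and 0 CPM at 42 min. Its change of -7.09 ± 0.41 was the largest of the members but rests on 2 reads at 42 min against 469 at 0 min. Of these, 344 reads at 0 min and both at 42 min lay at the only SNV with reads of both parents. From the summed counts alone the ratio was 163, with an exact interval of 44.8 to 1348. That interval covers counting error only and takes each count as a separate read, although a read over several SNVs is counted at each.

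NOP15 (YNL110C, chromosome XIV, 417826 to 418488), which binds the spacer between the rRNAs, had 333, 400 and 287 CPM at 0 min and 5.23, 10.97 and 0 CPM at 42 min, and changed by -5.92 ± 0.41. NOP16 (YER002W, chromosome V, 156803 to 157498), a nucleolar protein of early large-subunit particles, lay at the other end of the early factors with a feature of their own. It had 190, 223 and 178 CPM at 0 min and 26.1, 45.1 and 11.2 CPM at 42 min, and changed by -2.82 ± 0.28. The groups of 0 and 42 min did not overlap for either gene. The other early factors with a feature of their own lay between -5.34 and -3.40. RRS1, which brings the smallest rRNA to the particle together with RPF2, changed by -5.34. The change was -4.31 for PWP1, -4.04 for BRX1, -3.66 for RRP1 and -3.40 for CIC1.

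The 5 tested RNA helicases with a feature of their own, which unwind rRNA and release other RNAs from the particle, changed by -5.69 (DBP10), -5.46 (DRS1), -4.59 (DBP7), -4.05 (DBP9) and -3.13 (SPB4). DBP10 (YDL031W, chromosome IV, 394217 to 397204) had 95.0, 108 and 102 CPM at 0 min and 1.74, 2.44 and 1.24 CPM at 42 min, the latter from 4 reads in all. SPB4 (YFL002C, chromosome VI, 145114 to 146934), the best-read of these 5, had 250, 339 and 269 CPM at 0 min and 27.9, 46.3 and 22.4 CPM at 42 min. Although it fell least of these 5, it had no library of 42 min near those of 0 min (adjusted p = 1.63e-09).

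NOG1 (YPL093W, chromosome XVI, 370978 to 372921), a GTPase of the pre-60S particle, was the best-read member with a feature of its own. It had 849, 1132 and 1074 CPM at 0 min and 112, 183 and 241 CPM already at 6 min. At 42 min 10.5, 34.1 and 4.97 CPM were left, a change of -5.88 ± 0.34 (adjusted p = 1.95e-11). Each library of 6 min was already below each of 0 min, and each of 42 min was lower again.

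Of the PeBoW complex, which helps to mature the largest rRNA, YTM1 and ERB1 had features of their own. YTM1 (YOR272W, chromosome XV, 832813 to 834195) had 584, 732 and 624 CPM at 0 min, 10.9, 14.2 and 16.3 CPM at 24 min and 26.1, 86.5 and 17.4 CPM at 42 min. It was lower at 42 than at 0 min by -3.84 ± 0.31, and ERB1 by -5.03 ± 0.33. NOP2 (YNL061W, chromosome XIV, 510540 to 512396), an rRNA methyltransferase, had 214, 250 and 217 CPM at 0 min and 13.9, 31.7 and 3.73 CPM at 42 min, a change of -3.75 ± 0.36. MAK21, also named NOC1 (YDR060W, chromosome IV, 570649 to 573726), forms a dimer with NOC2 that travels with early particles. It had 262, 283 and 231 CPM at 0 min and 8.71, 15.8 and 8.70 CPM at 42 min, a change of -4.49 ± 0.24, and NOC2 changed by -4.00 ± 0.26. All 5 genes of these complexes and enzymes fell.

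The factors of later nuclear steps and of export changed by -5.94 (PUF6) to -1.74 (NOP53). PUF6 (YDR496C, chromosome IV, 1441433 to 1443403), a Puf-family RNA-binding protein that also represses ASH1 mRNA, had 583, 756 and 611 CPM at 0 min and 5.23, 20.7 and 3.73 CPM at 42 min, a change of -5.94 ± 0.36. NSA2 changed by -5.44 ± 0.55, on 4 reads at 42 min. LOC1 (YFR001W, chromosome VI, 149110 to 149724), a partner of PUF6 in the nucleus, had 290, 293 and 255 CPM at 0 min and 15.7, 45.1 and 26.1 CPM at 42 min, a change of -3.21 ± 0.23. TIF6 (YPR016C, chromosome XVI, 592332 to 593069) keeps the new large subunit from joining the small one. It had 131, 121 and 94.3 CPM at 0 min and 19.2, 25.6 and 17.4 CPM at 42 min, a change of -2.45 ± 0.28. Its groups did not overlap either, although of the 25 members with a feature of their own only NOP53 fell less.

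NOP53 (YPL146C, chromosome XVI, 276162 to 277529, - strand) recruits the helicase Mtr4 of the nuclear exosome to pre-60S particles. It had 182, 239 and 211 CPM at 0 min, 95.2, 103 and 132 CPM at 6 min and 116, 110 and 95.8 CPM at 24 min. At 42 min it had 52.3, 81.6 and 53.5 CPM, which gives -1.74 ± 0.17 against 0 min (adjusted p = 3.04e-08). Its level thus fell by 6 min, was little changed up to 24 min and was lower again at 42 min. NOP53 was also the only member of the 25 without a GATGAG match. The 17 with both motifs had a median change of -4.49 and a range of -5.94 to -2.45, and the 7 with GATGAG alone a median of -4.31 and a range of -7.09 to -2.82. The size of the change did not separate these groups, and with 1 member lacking GATGAG no comparison could be tested.

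The change was also tested in 4 steps, from 0 to 6, 6 to 12, 12 to 24 and 24 to 42 min. The libraries of 18 min were part of the fit but bound no step. From 0 to 6 min 24 of the 25 fell, against 17.3% of all features, with a median of -1.38. The largest change was that of DBP7 (-3.05 ± 0.28), which passed the read limit through its counts at 0 min. NOG1 and PUF6 followed (both -2.51), while RRP1 (-0.52 ± 0.18) and DBP9 (-0.61 ± 0.18) changed least among those called. The call of RRP1 was lost in DESeq2 (adjusted p = 0.0517), without replicate 1 (0.124) and without replicate 2 (0.221). That of DBP9 was lost without replicate 1 (0.0597) and without replicate 2 (0.111). Calls were also lost for NOP2 without replicate 1 (0.0685) and NOP16 without replicate 2 (0.0668). YTM1 lost its call in DESeq2 (0.0556) and without replicate 1 (0.0506). BRX1 (-0.74 ± 0.29, adjusted p = 0.0556) was not called, but was with the replicate number as a block (adjusted p = 0.0117). From 6 to 12 min 22 of the 25 fell, against 12.6% of all features, with a median of -2.02. DRS1 (-4.11 ± 0.38), SSF1 (-3.73 ± 0.48) and NOP15 (-3.71 ± 0.44) changed most, on 8, 4 and 15 reads at 12 min. Of these, DRS1 and SSF1 passed the read limit through their counts at 0 min. NOP53 (0.06 ± 0.18), TIF6 (-0.55 ± 0.30) and DBP7 (-1.08 ± 0.54) were not called. In this step the call of NSA2 was lost without replicate 1 (adjusted p = 0.365). Those of NOP2 (0.142), CIC1 (0.0809) and PWP1 (0.0785) were lost without replicate 2. With the deepest SNV alone that of CIC1 was lost too (0.0779).

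From 12 to 24 min 4 of the 25 were called lower and 0 higher, against 10.5% and 4.65% of all features. Several members had so few reads at 12 min that a further fall could hardly be called. Summed over the libraries of 12 min, SSF1 had 4 reads, DBP10 and RRS1 6 each, and DRS1 and DBP7 8 each. The called members had from 41 (DBP9) to 125 (YTM1), but EBP2, with 143, was not called. The 4 called lower were YTM1 (-2.47 ± 0.47), DBP9 (-2.21 ± 0.40), NOP2 (-1.79 ± 0.45) and RRP1 (-1.76 ± 0.29). All 4 had more than 50% of their level left at 6 min, as had NOP16, NOP53 and BRX1. RRP1 (YDR087C, chromosome IV, 617470 to 618306), for example, had 126, 132 and 126 CPM at 0 min, 79.8, 89.0 and 98.9 CPM at 6 min and 17.7, 9.85 and 12.0 CPM at 24 min. The median change over this step was 0.09, and the call of NOP2 was lost without replicate 2 (adjusted p = 0.0653).

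From 24 to 42 min 8 of the 25 fell (NOG1, PUF6, EBP2, DBP10, SPB4, NOC2, CIC1 and NOP53), against 13.4% of all features, and 1 rose, against 11.9%. The member that rose was YTM1 (1.67 ± 0.49, adjusted p = 0.0192), whose 3 libraries of 42 min, given above, all lay above its 3 libraries of 24 min. Without replicate 1 none of the 9 was called, without replicate 2 5 of them were, and without replicate 3 4 were. Over all features the 381 lower and 339 higher calls became 93 and 78 without replicate 1. The changes without it were -1.51 for NOG1 (adjusted p = 0.0599) and 1.76 for YTM1 (adjusted p = 0.0646). Without replicate 2, in which YTM1 was highest at 42 min, its change was 0.62 (adjusted p = 0.287).

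**Figure D2:**
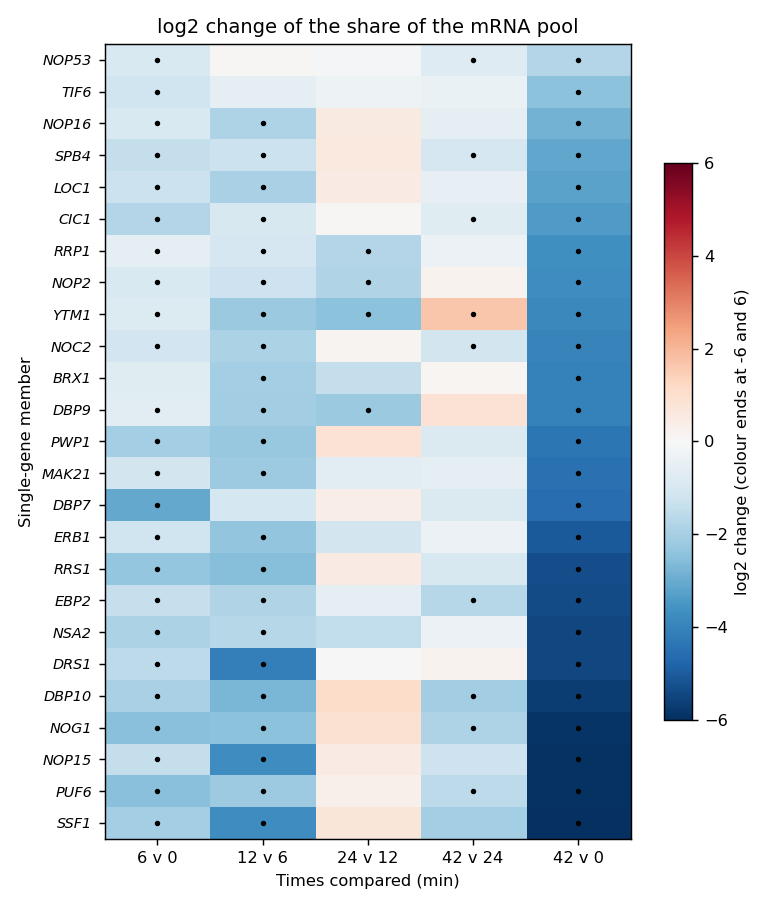
Log2 change of the share of the mRNA pool (colour) for the 25 tested members with a feature of their own (rows, ordered by the change from 0 to 42 min) in 5 comparisons of times in min (columns), with a dot for an adjusted p under 0.05. Dots fill the columns of 6 against 0 min (24) and 12 against 6 min (22) and are sparse later (4 and 9); SSF1 lies beyond the end of the colour scale.

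The second question was whether the BY and the RM transcript of a member left the pool at different rates, seen as a change of log2(BY/RM) over 42 min (allele-specific decay, ASD). Of the 25 tested members 1 was called, against 6.62% of 2838 features. This was NOP53, whose BY transcript fell further than its RM transcript. The changes of the other 24 ran from -0.91 (DBP7) to 1.23 (RRS1) with adjusted p of 0.222 or more, and those 2 had errors of 0.71 and 0.83.

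In NOP53 the BY reads against the RM reads were 79 to 57, 133 to 121 and 161 to 126 at 0 min in cultures 1 to 3. At 6 min they were 36 to 69, 32 to 48 and 52 to 91, and at 42 min 9 to 21, 21 to 46 and 8 to 35. BY reads were thus in the majority in each library of 0 min and in the minority in each of the later libraries. The BY share was 55.5% ± 2.91 at 0 min, 36.9% ± 2.89 at 6 min, 35.5% ± 4.30 at 12 min, 25.5% ± 7.30 at 18 min, 29.9% ± 8.73 at 24 min and 26.6% ± 7.0 at 42 min (SD, n = 3). The change of log2(BY/RM) over 42 min was -2.02 ± 0.29 (adjusted p = 1.46e-07).

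Split by allele, the BY transcript of NOP53 had 34.8% ± 5.07 of its level of 0 min left at 6 min and 14.6% ± 6.04 at 42 min. The RM transcript had 75.7% ± 18.9 left at 6 min, 80.6% ± 9.52 at 24 min and 48.0% ± 1.19 at 42 min. Much of the difference was therefore present by 6 min. Without the libraries of 0 min the slope was -0.83 (adjusted p = 0.246) and was not called. It was called in each of the other 12 settings, where its change ran from -4.73 (libraries of 0, 6 and 12 min only, as a slope scaled to 42 min) to -1.67 (without replicate 3). Its 4 SNVs moved alike: their BY share lay between 51.5% and 57.9% at 0 min and between 15.4% and 33.3% at 42 min, although reads that cover several SNVs are counted at each.

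**Figure D3:**
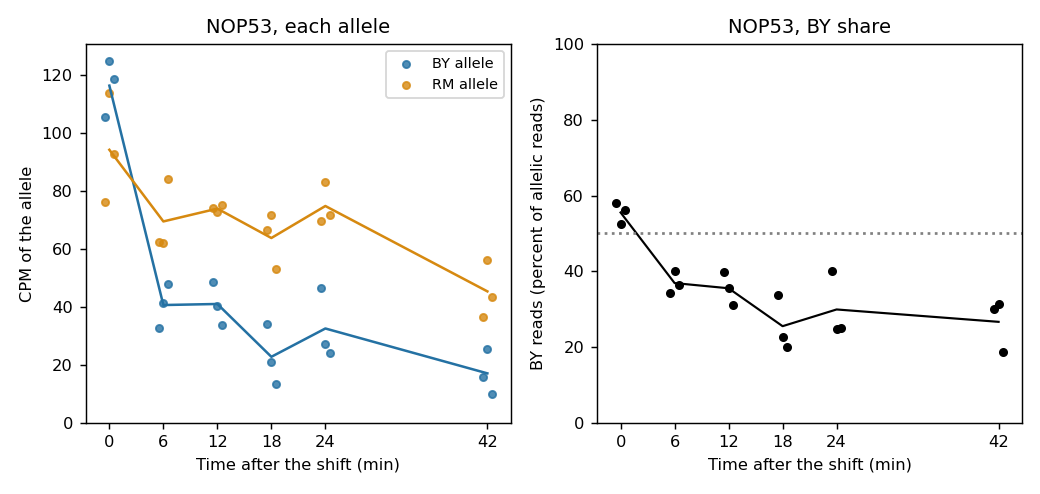
NOP53 in each library against time in min: CPM of the BY (blue) and RM (orange) transcript on the left, and the BY share of its reads in percent on the right, with points for libraries and lines for the mean of 3. The BY share goes from 55.5% at 0 min to 36.9% at 6 min and 26.6% at 42 min, below the dotted line at 50% in all libraries after 0 min; the library of 18 min with 20.0% holds 5 reads.

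At 0 min, before the decay, the balance of the alleles (allele-specific expression, ASE) could be tested for all 27 members with a feature of their own, and 5 were called, against 23% of 3030 features. The BY transcript was higher for SSF1, NOP15, CIC1 and NOP16, and the RM transcript for NOG1. NOP15 had 61.9%, 56.5% and 61.4% BY reads in cultures 1 to 3, which gave a log2(BY/RM) of 0.56 ± 0.09 (adjusted p = 5.58e-05). With its deepest SNV alone NOP15 was not called (0.31, adjusted p = 0.162). CIC1 (YHR052W, chromosome VIII, 210848 to 211978), which binds the same spacer region, had 60.6%, 60.0% and 58.5% BY reads and a log2(BY/RM) of 0.55 ± 0.10 (adjusted p = 0.000132). In both genes each library lay above 50%.

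NOG1 had 46.0%, 46.9% and 45.5% BY reads and a log2(BY/RM) of -0.22 ± 0.05 (adjusted p = 0.00184). The balance was uneven along NOG1, whose 11 SNVs had from 37.3% to 56.6% BY reads, 4 of them above 50%. With the deepest SNV alone its log2(BY/RM) was 0.14 (adjusted p = 0.57). NOP16 had 46.5%, 58.6% and 59.5% BY reads at its only SNV, so its libraries lay on both sides of 50%. Its call (0.36 ± 0.13, adjusted p = 0.049) was lost in 7 of the 8 other settings, all except that without replicate 1. In DESeq2 only NOP15 was called of these 5 (adjusted p from 0.075 for CIC1 to 0.828 for NOP16 among the others).

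SSF1 had 64.8%, 60.2% and 63.0% BY reads and a log2(BY/RM) of 0.72 ± 0.13 (adjusted p = 0.000186). At 10 of its 11 SNVs with reads no RM read was counted, and the remaining SNV, with 167 BY and 177 RM reads at 0 min, had 48.5% BY reads. Leaving out SNVs whose reads were nearly all from a single parent (under 2% or over 98% BY), its log2(BY/RM) was -0.08 (adjusted p = 0.755). SSF1 has a near-identical copy, SSF2, a member without any SNV here, and how reads of the copies were placed was not tested. In CIC1 an SNV also had no RM read and another 96.5% BY reads, and with the deepest SNV alone its log2(BY/RM) was -0.29 (adjusted p = 0.299).

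**Figure D4:**
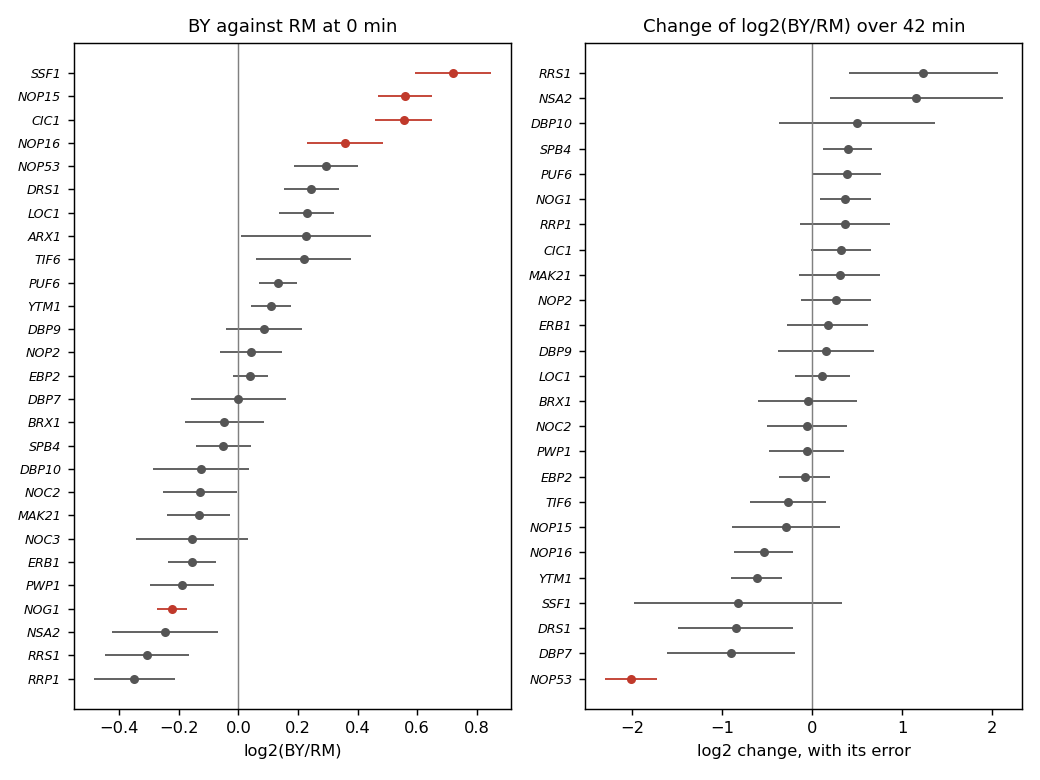
Left, log2(BY/RM) at 0 min for 27 members; right, change of log2(BY/RM) over 42 min for 25 members; points are estimates, bars their error (size over the square root of F) and red marks an adjusted p under 0.05. At 0 min 5 members are red, from -0.22 (NOG1) to 0.72 (SSF1); over time NOP53 alone is, at -2.02.

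Of the 19 features that hold a member and other genes, 14 passed the read limit. From 0 to 42 min 11 of them fell, against 39% of all features, 1 rose, against 37.2%, and 2 were not called, with a median of -2.07. NOP4 (an RNA-binding protein, with YPL044C) changed by -5.15 ± 0.31, DBP3 (a helicase, with KXD1) by -4.22 ± 0.27 and RPF2 (the partner of RRS1, with MTD1) by -3.14 ± 0.15. SQT1, a chaperone of the ribosomal protein Rpl10, shares its feature with GAT4. That feature had 195, 235 and 225 CPM at 0 min and 40.1, 52.4 and 24.9 CPM at 42 min, a change of -2.48 ± 0.21. These 4 features fell within the range of the members counted alone.

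The feature of RRP14 also holds MDH1, HOT13 and YKL083W, and it was the one called higher (0.28 ± 0.13, adjusted p = 0.0485). It had 321, 308 and 301 CPM at 0 min and 315, 378 and 431 CPM at 42 min, so 1 of the later libraries lay within the range of the earlier ones. With library totals the change was -0.04 (adjusted p = 0.808), and the call was also lost in 5 other settings. The features of SPB1 with PBN1 (-0.03 ± 0.10) and NOP8 with RIB4 (-0.17 ± 0.10) were not called, but with library totals both were called lower (-0.35, adjusted p = 0.00518, and -0.49, adjusted p = 8.49e-05). SPB1 with PBN1 was lower at 6 min by -0.66 ± 0.11 and had 314 CPM at 42 min, against 319 at 0 min. With the deepest SNV alone this feature was higher at 42 than at 0 min by 1.28 (adjusted p = 2.59e-08), so its SNVs did not move alike.

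No shared feature was called for ASD: 0 of 14 in edgeR's test, against 6.62% of all features, with 1 at an unadjusted p under 0.05 and 0 in DESeq2. At 0 min 4 of 16 shared features were called for ASE, against 23% of all features, with more BY reads for HAS1 (0.26), MAK5 (0.17) and NOP4 (0.41) and more RM reads for NOP8 (-0.26). These balances belong to the feature and not to the member alone. In DESeq2 none of the 4 was called (adjusted p from 0.166 to 0.402).

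DBP6 and NOG2, a helicase and a GTPase, had features with 0 reads in all libraries. Both lie on the right arm of chromosome XIV, where all 49 features named YNR, with 263 SNVs, held 0 reads from either allele, against 70 of the 3925 other features. Their zeros can therefore not be read as low expression. NOP7, REI1 and RRB1 had features under the read limit.

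The other genes of the pathway were counted on features of their own, from lists that hold none of the members. Of 13 further large-subunit factors all 13 fell from 0 to 42 min, against 39% of all features, with a median of -3.81. The largest changes were those of RSA4 (-5.76 ± 0.40), a WD-repeat protein that leaves nuclear particles before export, NMD3 (-5.58 ± 0.43), the export adaptor, MTR4 (-5.36 ± 0.23), the exosome helicase that NOP53 recruits, and IPI3 (-5.26 ± 0.32). Of the small-subunit factors 24 of 24 fell over the same time, with a median of -4.37, and of RNA polymerase I and its factors 6 of 7, with a median of -3.63. A list of large-subunit ribosomal proteins, taken by gene name, had a smaller median of -1.03, with 25 of 30 lower. By its name RPP1 (-2.28), which is not a ribosomal protein, is counted in this list. From 0 to 6 min 1 of these 30 fell, against 17.3% of all features, and from 12 to 24 min 18 of 30, against 10.5%. In the same steps 24 and 4 of the 25 assembly factors fell. The difference between the lists was not tested. GATGAG was found before 91.5% of the small-subunit factors, 76.5% of the further large-subunit factors and 73.3% of the polymerase I genes. In the list of ribosomal proteins, RPP1 included, it was found before 8.54%.

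Allele-specific decay was called for 3 of the 13 further large-subunit factors, against 6.62% of all features. The BY transcript fell further for MTR4 (-1.07 ± 0.32, adjusted p = 0.0245) and the RM transcript for AFG2 (0.86 ± 0.15, adjusted p = 1.99e-05) and MAK11 (0.87 ± 0.28, adjusted p = 0.0465). In the 2 lists 1 of 25 and 3 of 13 were called. NOP53 and MTR4 had a falling BY share, AFG2 and MAK11 a rising one, and a link between these genes was not tested. At 0 min LSG1 (0.35) and AFG2 (0.21) were called with more BY reads among 17 such features (2 of 17, against 23% of all features), at adjusted p of 0.0368 and 0.0429.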

How the data were processed

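Counts of reads per SNV and parent allele were deposited by the authors without normalization. Per the file headers, reads were aligned separately to the BY and RM genomes, duplicates were removed, and reads were counted per SNV in transcript features, untranslated regions included, with overlapping genes joined. The submitters' processing notes name BWA 0.5.9, Picard 1.43 and sacCer3. Per the labels' protocols, the kit does not mark strand, and cultures were independent.

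SNVs of the table of the whole series (30497 of the 35952 in the library tables) were summed per feature. The sources used here do not give the rule that left out the other 5455, with 9.82% of allelic reads. edgeR 4.0.16 (R 4.3.3) tested abundance (TMM, time as a factor), ASD (terms for library, allele and allele by time, times 42 min) and ASE, over all features with a mean of at least 20 reads. Adjusted p under 0.05 (Benjamini-Hochberg) was called. DESeq2 1.42.0 was an alternative, with other factors, filters, SNV sets and left-out libraries. Figures used Python 3.11.15 and matplotlib 3.10.9. The scripts were tested on simulated data.

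The members, lists and motifs were chosen with earlier results of these data known. Named were the called members for alleles, the 5 largest and 5 smallest falls and the best-read member of each role, and other pathway genes as up to 4 called ones of largest change; other members were added as examples. Aliquots of 1 culture gave all times, so the replicate numbers give pairs. Their deviations from the mean of a time correlated with a median r of 0.159 (-0.032 to 0.469, 45 pairs) within a culture and -0.067 between cultures. Libraries of 1 time differed by more than sampling noise (chi-square over its degrees of freedom 1.35 to 8.61), so none was merged. Reads carry no molecular identifiers, so intervals cover counting error only.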

Additional observations from a re-analysis of the deposited data

Results flagged for a closer look

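Reads of members also lay at SNVs that the library tables hold and the table of the whole series does not. No main result above uses them, only the alternative setting with all SNVs. Summed over the 18 libraries they were 322 reads at 1 SNV for MAK21 (166 of BY) and 151 at 7 SNVs for SSF1, all of BY, as at the SNVs of SSF1 above. Among shared features they were 736 reads for NOP4 (593 of BY), 505 for NOP12 (501 of BY), 1169 for NUG1 (524 of BY), 192 for NSA1 (98 of BY), 570 for HAS1 (290 of BY), 176 for SPB1 (144 of BY) and 194 for URB1 (193 of BY). The feature of RRB1, a chaperone of the ribosomal protein Rpl3, had 2673 such reads at 11 SNVs, 2672 of them of BY, against 86 reads in the table of the whole series.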

How the results depend on the processing

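Counts of members called lower from 0 to 42, 0 to 6, 6 to 12 and 12 to 24 min stayed within 1.5 times in all settings. From 24 to 42 min the 8 lower became 0 to 7 and the 1 higher 0 to 1 when a replicate was left out, and 3 and 0 with the deepest SNV. For ASD the 1 member became 0 without the libraries of 0 min. For ASE the 4 with more BY reads became 1 with DESeq2 (NOP15), 1 with the deepest SNV (LOC1 at 0.40, adjusted p = 0.0452, none of the 4) and 2 without SNVs of extreme BY share, and the 1 with more RM reads became 0 with DESeq2 and 0 with the deepest SNV.

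With the deepest SNV alone the sign turned for the features of RRP14 (0.46) and SPB1 (0.43) at 6 min, MAK5 from 12 to 24 min (0.030), and NOP8 (0.40) and SPB1 (1.28) at 42 min, and for ASE of NOG1 (0.14), CIC1 (-0.29), SSF1 (-0.081) and MAK5 (-0.12). It also turned for RRP14 at 42 min with library totals (-0.035, cause not tested), for ASE of SSF1 without extreme SNVs (-0.083) and of NOP12 with all SNVs (0.51), which add reads almost only of BY.

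With the replicate block 25 members fell from 0 to 6 min in place of 24, adding BRX1, and no other call of a member with its own feature changed. The block added calls for RRP14 (6 to 12 min), NSA1 (12 to 24 min) and NOP4 and MAK5 (24 to 42 min). Errors of the ASD change ran from 0.27 to 1.2 over the 25 members. The share of reads at 42 min without culture 2, given above, was added after seeing the data.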
